A study of Homo sapiens with 9 samples.

Results

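The comparison of a scrambled small interfering RNA (siRNA) with the transfection reagent alone was taken from the 3 arrays of each of these groups, 6 of the 9 arrays of the series. It covered 19064 probe sets that carry exactly 1 gene symbol, for 11963 genes. All cultures were U251MG (U251), a long-established human glioma line; the cells were plated at 200K per well. The reagent group received Oligofectamine, a lipid that carries nucleic acids into cells. The scrambled group received Oligofectamine with a non-targeting siRNA at 100 nM, and the third group received Oligofectamine with an siRNA against WT1 at 100 nM. Plates stayed on a rocker for 4 hours, and 5 ug of total RNA was labelled per array. The time from transfection to harvest and both siRNA sequences were not found in the labels. Since all 9 cultures had the reagent, the comparison holds the addition of an siRNA and the sequence of this particular siRNA, which cannot be told apart. Levels are log2 values, so a difference of 1 is a doubling, and each difference is the scrambled array minus the reagent array of the same replicate number.

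An siRNA is loaded into an Argonaute protein, and its guide strand then directs the cutting of transcripts that pair with it along its whole length. Guides can also lower transcripts that pair only with their seed, the stretch near the 5′ end, which is why non-targeting siRNAs are used as controls. Cells can also sense RNA duplexes through RIG-I, MDA5, PKR and the Toll-like receptors, which switch on interferon and its target genes. A cationic lipid enters through endosomes and lysosomes, and this reagent was present in both groups.

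The 3 cultures of a group are called biological triplicates in the series design, and whether a number marks a day or a passage is not given. Array numbers carried most of the variation: over the 6 arrays, 80.7% of the sum of squares lay between numbers, 11.3% between the groups and 7.98% remained. The array medians lay between 6.45 and 6.53 over all 9 arrays. The difference between the 3′ and 5′ control probe sets ran from -0.02 to 0.18 for GAPDH and from 0.05 to 0.68 for ACTB, and it moved with the number. Within a number it differed little between scrambled and reagent, with ACTB at 0.05 and 0.09 in number 1, 0.68 and 0.62 in number 2, and 0.46 and 0.50 in number 3. Markers of the line were present: 13 of 14 mesenchymal glioma markers and 10 of 14 astrocyte markers were brighter than the middle of the probe sets in the reagent arrays. The same was true of 1 of 10 microglia and macrophage markers, 1 of 8 endothelial, 1 of 8 oligodendrocyte, 3 of 9 epithelial and 6 of 12 neuron markers.

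A small part of the transcriptome differed with scrambled siRNA, with similar numbers of genes higher and lower and mostly modest changes. At an adjusted p under 0.05 in limma with the replicate number as a block, 231 probe sets differed, 1.21% of those tested. Of these 118 were higher (0.619%) and 113 were lower (0.593%). They belong to 187 genes, 95 higher and 92 lower, and 0 genes were called in both directions. The absolute difference of the called probe sets ran from 0.29 to 1.42 with a median of 0.49, against a median of 0.06 over all probe sets, and 6 called probe sets passed 1. Of the 231, 205 lay in the brighter 50% of the probe sets. In 116 of them the 3 scrambled arrays did not overlap the 3 reagent arrays, a separation that 1037 of all probe sets (5.44%) show. Without adjustment, 2416 probe sets had a p under 0.05 (12.7%). The count rests on the pairing and on the arrays of number 2: without the block 1 probe set passed (LAMC1, with 452 at an unadjusted p under 0.05), and without number 2 only 3 passed (LAMC1, NFIB and FABP4). Leaving out reagent replicate 2 alone left 22 and scrambled replicate 2 alone left 20.

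**Figure D1:**
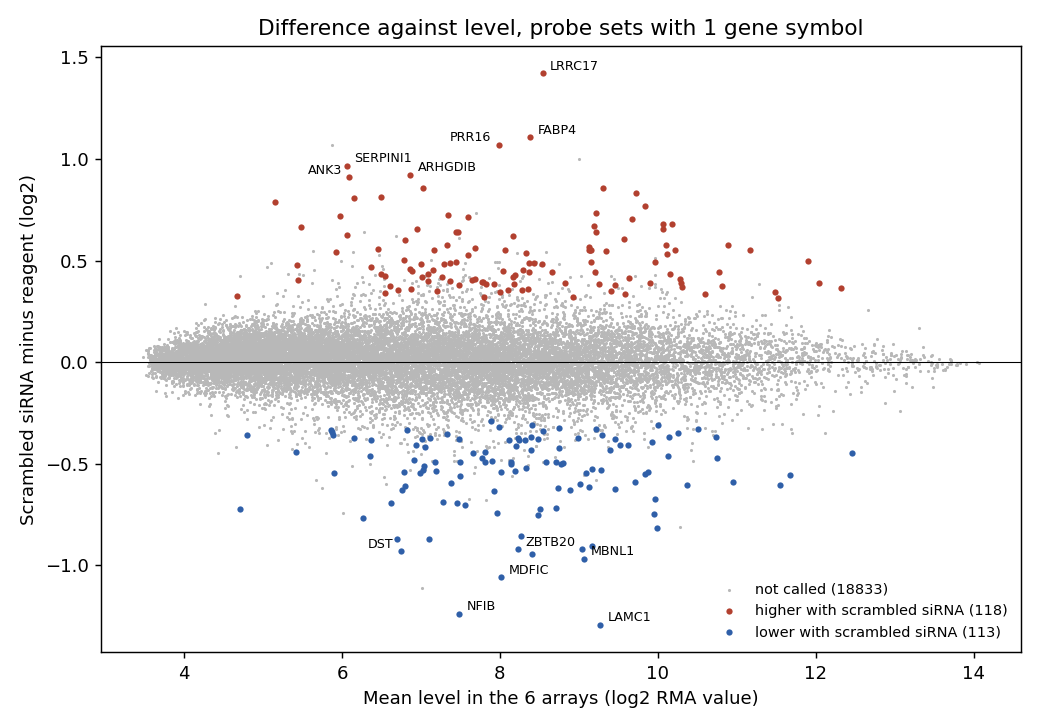
Difference between scrambled siRNA and reagent (log2, vertical axis) against the mean level in the 6 arrays (log2, horizontal axis) for 19064 probe sets. The 118 probe sets called higher are red, the 113 called lower are blue, and the largest changes, LRRC17 at 1.42 and LAMC1 at -1.29, carry their names.

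The sequences just upstream of 4 of the 6 genes past a difference of 1 are shown as examples of genes with large differences in either direction. LRRC17 and PRR16 rose, and LAMC1 and NFIB fell. Each is the 250 bases before the start of the gene from RefSeq (GRCh38.p14), read 5′ to 3′ on the strand of the gene. Capitals mark the letters CCAAT and GGGCGG, or their reverse complements, where a search of both strands found them.
LRRC17 (chr7:102912750-102912999, plus strand): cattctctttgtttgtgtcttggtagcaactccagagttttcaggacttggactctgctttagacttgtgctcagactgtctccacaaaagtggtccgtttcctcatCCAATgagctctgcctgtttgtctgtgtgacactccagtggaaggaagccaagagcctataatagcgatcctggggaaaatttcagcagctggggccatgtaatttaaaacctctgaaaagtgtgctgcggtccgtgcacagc
PRR16 (chr5:120464050-120464299, plus strand): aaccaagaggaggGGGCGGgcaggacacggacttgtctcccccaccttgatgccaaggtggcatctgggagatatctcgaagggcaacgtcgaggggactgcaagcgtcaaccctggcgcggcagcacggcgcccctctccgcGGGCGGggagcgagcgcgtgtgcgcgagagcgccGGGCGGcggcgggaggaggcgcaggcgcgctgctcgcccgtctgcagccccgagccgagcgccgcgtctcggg
LAMC1 (chr1:183023170-183023419, plus strand): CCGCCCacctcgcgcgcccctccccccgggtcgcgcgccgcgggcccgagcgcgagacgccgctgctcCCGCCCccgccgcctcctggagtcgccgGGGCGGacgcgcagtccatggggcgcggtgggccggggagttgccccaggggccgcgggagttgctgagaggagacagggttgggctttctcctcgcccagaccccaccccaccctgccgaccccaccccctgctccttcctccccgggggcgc
NFIB (chr9:14322388-14322637, minus strand): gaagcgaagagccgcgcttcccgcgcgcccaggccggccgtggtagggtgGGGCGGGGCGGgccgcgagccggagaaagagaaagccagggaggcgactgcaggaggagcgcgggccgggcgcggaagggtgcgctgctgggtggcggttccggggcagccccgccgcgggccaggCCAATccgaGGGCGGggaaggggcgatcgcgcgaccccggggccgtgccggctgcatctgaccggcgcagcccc
Of the 4 shown, LRRC17 stood apart from the other 3 with a GC content of 48%, 4 CpG and no GGGCGG, against 73.2% to 79.6% GC and 32 to 36 CpG. MDFIC, which fell past 1 and is not shown, had 52.8% GC, 11 CpG and 1 GGGCGG, so low GC was not particular to LRRC17. GGGCGG was found in 58.3% of 72 higher genes, 69.2% of 78 lower genes and 60.6% of the 9563 tested genes with an entry. TATAAA was found in 11.1%, 6.41% and 7.93%, CCAAT in 38.9%, 32.1% and 35.6%, and TGACTCA, the letters read by AP-1, in 4.17%, 2.56% and 2.98%. The median GC content was 66.4%, 65% and 63.6%. The median span of the gene was 67.1 kb for the higher and 54.3 kb for the lower genes and 28.9 kb over 11954 tested genes with a span; no test was made of these shares and medians.

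The largest fall was in LAMC1, the gamma 1 chain shared by most laminins of the basement membrane. Its probe set 200771_at read 9.96, 9.88 and 9.90 in the reagent arrays and 8.58, 8.59 and 8.69 in the scrambled arrays. The groups lie far apart with almost no spread within either. The difference was -1.29 ± 0.0784 (SE, n = 3 pairs; adjusted p = 0.000305, limma), a 2.45-fold lower level. LAMC1 was the single gene that passed under all 22 alternatives, the fit without the block included. Its other probe set, 200770_s_at, differed by -0.17 (adjusted p = 0.34), so that the 2 probe sets of LAMC1 did not give the same size of change.

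NFIB, a transcription factor of the nuclear factor I family with a part in glial development, fell nearly as far. Probe set 213032_at read 7.72, 8.10 and 8.48 with reagent and 6.66, 6.67 and 7.26 with scrambled siRNA. All 3 scrambled arrays lay below all 3 reagent arrays, although both groups spread with the number. The difference was -1.24 ± 0.0739 (SE; adjusted p = 0.000305, limma). Of the 7 probe sets of NFIB, 5 were called lower, from -0.53 to -1.24, and the others were at -0.45 (adjusted p = 0.0507) and -0.16. The fall in NFIB is thus seen at most of its probe sets, that of LAMC1 at 1.

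MBNL1 and QKI, which bind RNA, were among the 14 greatest falls. MBNL1, the muscleblind protein that controls alternative exons, read 9.48, 9.63 and 9.52 with reagent and 8.32, 8.57 and 8.84 with scrambled siRNA at 201151_s_at. The difference was -0.97 ± 0.0942 (adjusted p = 0.00325, limma), and 3 of its 4 probe sets were called, from -0.75 to -0.97. QKI, which binds and stabilises glial transcripts, fell by 0.72 at 212636_at (adjusted p = 0.0106) while its other 5 probe sets lay between -0.27 and -0.05 and did not pass. Among 34 splicing regulators taken at their brightest probe set, 0 were called higher and 1 lower, beside 1.21% of all genes called. The median was -0.04 against 0.01 over all genes.

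MDFIC and ZBTB20, which act on transcription, were also among the 14 greatest falls. MDFIC, an inhibitor of MyoD family factors, read 8.47, 8.83 and 8.34 with reagent and 7.63, 7.63 and 7.20 with scrambled siRNA, without overlap. The difference was -1.06 ± 0.076 (adjusted p = 0.00093, limma). ZBTB20, a zinc finger repressor, fell by 0.92 at 213158_at (adjusted p = 0.00357) and was called at 3 of its 4 probe sets. The remaining large falls were in DST, a linker of the cytoskeleton (-0.93), PRSS12, a secreted serine protease (-0.87), DYRK2, a protein kinase (-0.87), and FBLN1, a matrix glycoprotein (-0.77). They were followed by the lipid phosphatase MTMR6 (-0.75), PPP2R1B, which scaffolds protein phosphatase 2A (-0.74), SPATS2L (-0.73) and the collagen cross-linking enzyme LOX (-0.72). PRSS12 was called at both of its probe sets. FBLN1 was also called lower at 202994_s_at (-0.63), while its remaining probe sets, at 0.11, 0.04 and 0.18, did not pass. DST was called at 1 of 8, PPP2R1B at 1 of 5 and LOX at 1 of 3, although the other probe sets of LOX, at -0.68 and -0.45, did not differ in sign. SPATS2L was called at 215617_at, which was dim, at 4.74, 5.43 and 5.04 with reagent. Its far brighter probe set 222154_s_at differed by -0.11 and did not pass (adjusted p = 0.538, limma).

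LRRC17, a secreted protein with leucine-rich repeats, had the largest rise. It read 7.76, 8.49 and 7.25 in the reagent arrays and 9.27, 10.01 and 8.47 in the scrambled arrays. The groups touch, since the lowest scrambled array lies just under the highest reagent array, but each scrambled array was far above its own pair. The paired differences were 1.51, 1.53 and 1.23, which gave 1.42 ± 0.116 (SE; adjusted p = 0.00176, limma), a 2.68-fold higher level.

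FABP4, a carrier of fatty acids best known from adipocytes and macrophages, followed. It read 7.55, 8.55 and 7.38 with reagent and 8.88, 9.49 and 8.43 with scrambled siRNA, again overlapping between groups and rising in each pair. The difference was 1.11 ± 0.0983 (adjusted p = 0.00274, limma). It was the single called member of 28 measured fatty acid binding proteins and PPAR targets, whose median was -0.02, beside 1.21% of all genes called. PRR16 read 6.94, 7.90 and 7.50 with reagent and 8.20, 8.96 and 8.40 with scrambled siRNA, without overlap. Its difference was 1.07 ± 0.15 (adjusted p = 0.0138, limma), and it no longer passed without reagent replicate 2 (adjusted p = 0.111) or without scrambled replicate 1, 2 or 3 (0.0728, 0.12 and 0.0563).

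SERPINI1, ANK3, RGS7, GABRB1 and SYT11 were among the 14 greatest rises. The protease inhibitor SERPINI1, known as neuroserpin, was higher by 0.97 (adjusted p = 0.00495). ANK3, the ankyrin of the axon initial segment, was higher by 0.91 at 206385_s_at (adjusted p = 0.0329), and RGS7, which shortens G protein signals, by 0.86 at 206290_s_at (adjusted p = 0.0037). The remaining probe sets of ANK3, at 0.22 and at 0.18 for the brighter 209442_x_at, did not pass, nor did that of RGS7, at -0.01. GABRB1, a subunit of the GABA-A receptor, was higher by 0.79 (adjusted p = 0.0234), and SYT11, a synaptotagmin of vesicles, by 0.72 at both of its probe sets. Their reagent levels were low: 5.58 for SERPINI1, 5.64 for ANK3 and 4.75 for GABRB1, and 6 of the 14 greatest rises lay in the dimmer 50% of the probe sets. None of the 12 neuron markers was called in either direction in limma, 1 had an unadjusted p under 0.05 (GAD1, at -0.44), and 0 of 12 passed with the block as a random effect. Among all genes 1.21% were called and 13.1% had an unadjusted p under 0.05, so 0 and 1 of 12 are near those shares. Of the 12, 7 lay above 0 and 5 below, with a median of 0.02. Other rises among the 14 included CRISPLD2, a secreted protein (0.81), FILIP1L (0.81) and ABCA1, which exports cholesterol (0.72).

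**Figure D2:**
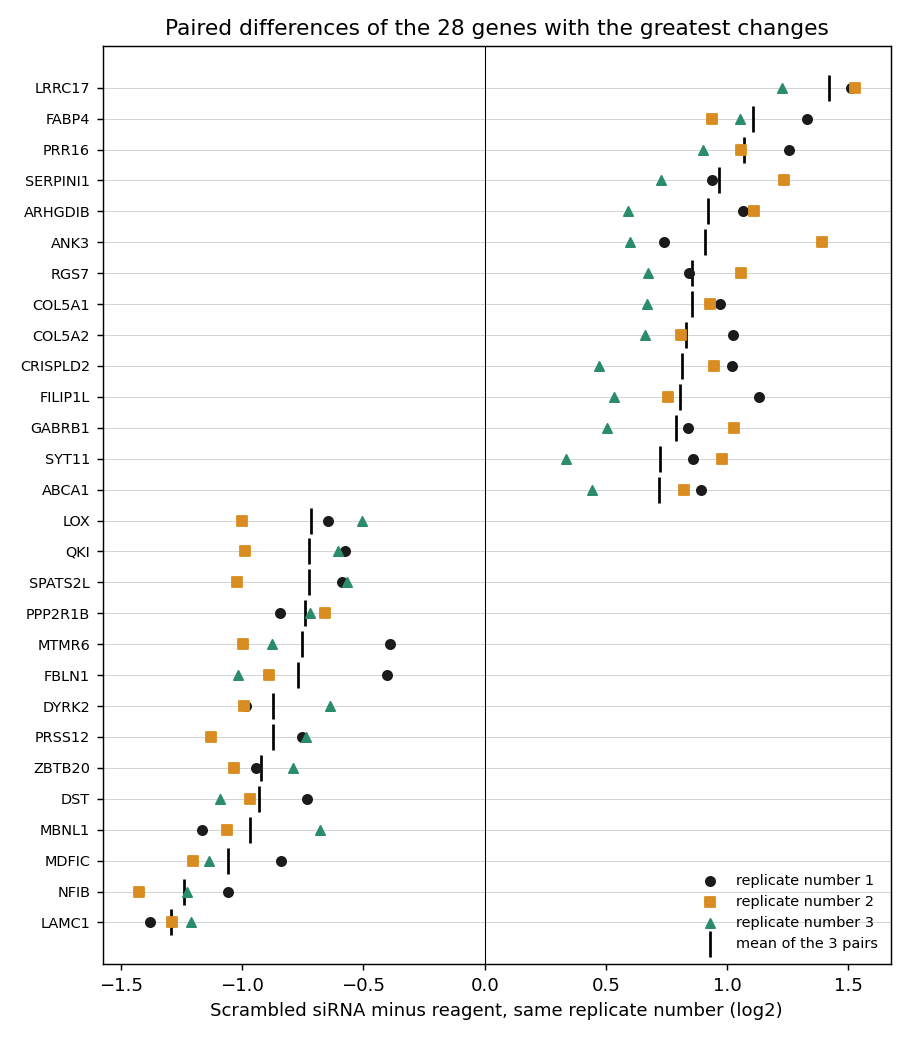
Paired differences between scrambled siRNA and reagent (log2, horizontal axis) for the 14 largest rises and the 14 largest falls, with a point for each replicate number and a bar for their mean. Every point lies on the side of its mean, and in 13 of the 14 rises the smallest difference was in number 3.

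All 28 genes of the greatest rises and falls moved the same way in the 3 pairs, which the rule that named them required; 37.9% of all probe sets do so. In 21 of the 28 the groups did not overlap, 9 of the rises and 12 of the falls, where 2.69% of all probe sets separate upward and 2.75% downward. Number 3 held the smallest difference in 13 of the 14 rises and in 7 of the 14 falls. Over all called probe sets it held the smallest in 70 of 118 higher and 59 of 113 lower. The 28 kept their sign under each alternative that gave them a value. Without the block 1 of the 28 passed, and with the block as a random effect 22 did. Without reagent replicates 1, 2 and 3 it was 20, 11 and 25, and without scrambled replicates 1, 2 and 3 it was 17, 12 and 19. Without numbers 1, 2 and 3 it was 22, 3 and 24, and without WT1 siRNA replicates 1, 2 and 3 it was 28, 27 and 28.

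A smaller group was called under all 9 alternatives that kept the 6 arrays and the block, 48 probe sets of 48 genes, 20 higher and 28 lower. Probe sets in the dimmer 50%, or not the brightest of their gene, had no value in 1 or more of these alternatives. They could not enter the group, so its limit of 1 probe set per gene was set by the rule. Of the 28 greatest rises and falls, 16 had a value with 1 probe set per gene and 20 in the brighter 50%, and all of these were called there. The 10 of them with the smallest p were in LAMC1, NFIB, MDFIC, LRRC17, FABP4, MBNL1 and PPP2R1B, genes described above, and in 3 with smaller changes. NFIB entered at 209290_s_at (-0.91, with overlapping groups) and MBNL1 at 201153_s_at (-0.82), not at the probe sets whose levels were given above. GPNMB, a glycoprotein of lysosomes and melanosomes, read 10.92, 11.12 and 10.62 with reagent and 11.51, 11.65 and 11.17 with scrambled siRNA, a difference of 0.55 ± 0.06 (adjusted p = 0.00495, limma). RPS27L, a ribosomal protein paralogue induced by p53, read 11.81, 11.89 and 11.84 with reagent and 11.10, 11.24 and 11.39 with scrambled siRNA, a difference of -0.61 ± 0.0669 (adjusted p = 0.00508, limma). Neither of these genes had overlapping groups. AKR1B10, an aldo-keto reductase, differed by -0.61 (adjusted p = 0.00505) and its groups overlapped.

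Of the 187 called genes, 118 had further probe sets. In 28 of these another probe set was called the same way, in 10 every probe set was, and in 96 every other probe set had the same sign. In 0 of them was a probe set called the other way. All probe sets of COL5A1, COL5A2, PLAU and SPARC were called higher. Most but not all were called lower in NFIB (5 of 7), MBNL1 (3 of 4, with 215663_at at 0.02) and ZBTB20 (3 of 4, with 222357_at at -0.10). In DST, QKI, PPP2R1B, LAMC1, COL1A1, ANK3 and RGS7 a single probe set carried the call. COL1A1 was called at 202310_s_at (0.66, adjusted p = 0.00641), while its other 3 probe sets lay between 0.01 and 0.09.

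**Figure D3:**
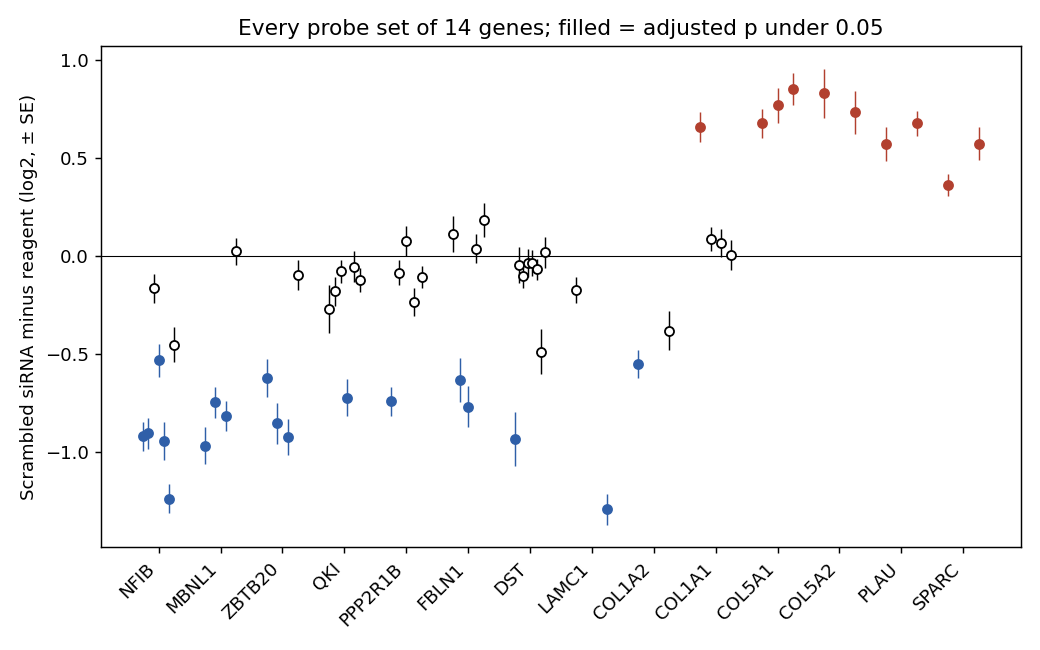
Difference between scrambled siRNA and reagent (log2, vertical axis, with the SE as bars) at every probe set of 14 genes chosen after their values were seen. Filled points passed an adjusted p of 0.05; all 3 probe sets of COL5A1 lie between 0.68 and 0.85, while LAMC1 has 1 at -1.29 and 1 at -0.17.

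Genes of the extracellular matrix held the most calls of the 35 lists. Of 54 measured genes, each at its brightest probe set, 9 were higher and 4 lower, where 0.644% and 0.568% of the 11963 genes were called higher and lower and 1.21% in all. The list held LRRC17 and LAMC1 with their changes already known. The median was 0.07 against 0.01 over all genes, and 40 of 54 lay above 0, where 55.7% of all genes did. Chains of collagen V, a fibrillar collagen, rose. COL5A1 read 8.77, 8.73 and 9.14 with reagent and 9.74, 9.66 and 9.81 with scrambled siRNA at 212489_at, without overlap, a difference of 0.85 ± 0.0808 (adjusted p = 0.00323, limma). COL5A2 was higher by 0.83 (adjusted p = 0.0173) and by 0.73 at its other probe set, also called.

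Collagen IV of the basement membrane rose while 2 laminin chains fell. COL4A1 rose by 0.66 (adjusted p = 0.0173) and COL4A2, its partner chain, by 0.36 at 211966_at (adjusted p = 0.0329), while the brightest probe set of COL4A2 differed by 0.23 and did not pass (adjusted p = 0.194). LAMC1 fell as given above, and the alpha 4 chain LAMA4 fell by 0.54 (adjusted p = 0.0171). The other 4 probe sets of LAMA4 lay between -0.11 and 0.14 and did not pass, so that each laminin call rests on 1 probe set. Other called members of the list were higher, the matrix proteins THBS2 by 0.58, SPARC by 0.36, CCN1 by 0.37 and TNC by 0.31 (adjusted p = 0.0153, 0.0219, 0.0365 and 0.0478). The lysyl oxidase family moved in both directions, with LOXL2 higher by 0.33 (adjusted p = 0.036) and LOX lower by 0.72 (adjusted p = 0.0284). COL1A2, a chain of collagen I, fell by 0.55 (adjusted p = 0.0109). The count rests on the arrays of number 2, without which 0 were called higher and 1 lower. Without reagent replicate 2 it was 1 and 1, without scrambled replicate 2 also 1 and 1, without the block 0 and 1, and with the block as a random effect 4 and 3. The median stayed between 0.06 and 0.13 under every alternative.

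The urokinase system rose at its brightest probe sets. PLAU, the protease urokinase, read 10.64, 10.85 and 10.30 with reagent and 11.24, 11.45 and 10.81 with scrambled siRNA. The groups overlap, but each pair rose, by 0.61, 0.60 and 0.51. The difference was 0.57 ± 0.0856 (adjusted p = 0.0169, limma), and its other probe set was higher by 0.68 (adjusted p = 0.00325). The receptor PLAUR was higher by 0.61 (adjusted p = 0.036) and the metalloproteinase inhibitor TIMP2 by 0.48 (adjusted p = 0.0147). The remaining probe sets of PLAUR, at 0.42 and 0.19, did not pass (adjusted p = 0.0671 and 0.308, limma). PLAU, PLAUR and TIMP2 were the 3 called of 33 proteases of invasion and their inhibitors, with 0 lower and a median of 0.02. Among all genes 0.644% were called higher and 0.568% lower. Without reagent replicate 1 or 2, or scrambled replicate 1 or 2, or number 2, 0 of the 33 were called, and with the block as a random effect 1 was.

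Genes of the innate response to RNA duplexes were not called. Of 21 measured sensors and signalling proteins, limma called 0 in either direction and 6 had an unadjusted p under 0.05, 3 higher and 3 lower. The median was -0.01. Among all genes 1.21% were called and 13.1% had an unadjusted p under 0.05, so 0 calls among 21 genes is near that share. RIGI, the sensor RIG-I, differed by -0.28 (adjusted p = 0.215) and EIF2AK2, the kinase PKR, by -0.09 (adjusted p = 0.765). The kinase TBK1 differed by 0.20 (adjusted p = 0.235). With array weights 1 of the 21 was called lower, and with the block as a random effect 0 were.

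Interferon-stimulated genes gave the same count. Of 44 measured, limma called 0, and 8 had an unadjusted p under 0.05, 7 of them higher, beside 1.21% and 13.1% of all genes. The median was 0.04, and by number it was 0.10, 0.00 and 0.00, so that the shift of the median lay in number 1. Single members, given next, rose in each number. IFI44, a marker of the interferon response, had paired differences of 0.73, 0.42 and 0.11 with a mean of 0.42 (adjusted p = 0.12). IFI44L was at 0.77, 0.21 and 0.23 (adjusted p = 0.198). ISG15, a ubiquitin-like modifier, differed by 0.19 (adjusted p = 0.369) and LGALS3BP by 0.25 (adjusted p = 0.0797). Array weights called 3 of the 44 higher, an intensity trend 2, the brighter 50% of probe sets 1, and leaving out reagent replicate 3 also 1. The highest mean difference over the 3 pairs among the 44 was the 0.42 of IFI44.

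The machinery of RNA interference held 1 call of 24 measured genes, beside 1.21% of all genes called. TSN, the translin subunit of the C3PO nuclease that helps to clear the passenger strand, read 10.13, 10.14 and 10.08 with reagent and 9.73, 9.73 and 9.71 with scrambled siRNA. The groups are separate, with a spread of a few hundredths in each. The difference was -0.40 ± 0.0576 (adjusted p = 0.0153, limma), and its probe set 201513_at fell by 0.55 (adjusted p = 0.011). Leaving out any reagent or scrambled array ended the call at 201515_s_at, with adjusted p of 0.0558 to 0.13. DICER1, the nuclease that makes small RNAs, was higher by 0.40 at 212888_at (adjusted p = 0.0494), but by 0.20 at its brightest probe set, which did not pass (adjusted p = 0.45).

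Secreted signals moved apart from each other. CXCL8, the chemokine interleukin 8, read 7.67, 8.84 and 7.21 with reagent and 6.71, 8.18 and 6.71 with scrambled siRNA, falling in each pair. The difference was -0.71 ± 0.12 (adjusted p = 0.0289, limma), which did not pass with the block as a random effect (0.398), with any reagent replicate left out (0.0756 to 0.111) or without scrambled replicate 1 or 2 (0.165 and 0.195). Its other probe set differed by -0.60 and did not pass (adjusted p = 0.194). IL11, a cytokine of the IL6 family, had paired differences of 1.21, 1.15 and 0.64 at its brightest probe set and did not pass (adjusted p = 0.0644), but was higher by 0.36 at 206926_s_at (adjusted p = 0.039). Of the 29 inflammatory genes measured, 0 were called higher and 1 lower, beside 1.21% of all genes called. Among 30 immediate early genes, DUSP5, a phosphatase of ERK, rose by 0.64 (adjusted p = 0.0173, and 0.158 with the block as a random effect) beside CCN1.

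Growth factor genes were mixed. For the counts that follow, 1.21% of all genes were called at their brightest probe set and 13.1% had an unadjusted p under 0.05 (limma). In the insulin-like growth factor system, IRS1, the docking protein of the receptor, was higher by 0.55 (adjusted p = 0.0114), the 1 gene called of 18, and not with the block as a random effect (adjusted p = 0.158). At probe sets other than the brightest, which did not pass, the binding protein IGFBP5 was higher by 0.66 (adjusted p = 0.0199) and IGFBP7 lower by 0.62 (adjusted p = 0.00873). Of 34 genes of PDGF, EGF and FGF signalling 0 were called at their brightest probe set, and 6 had an unadjusted p under 0.05. At dimmer probe sets the EGF receptor ligand HBEGF was higher by 0.46 (adjusted p = 0.0299; 0.40 and 0.121 at its brightest) and NRG1, a ligand of ERBB receptors, lower by 0.38 (adjusted p = 0.0406; -0.04 and 0.916 at its brightest). TGFB2 was higher by 0.39 at 220407_s_at (adjusted p = 0.0234; 0.31 and 0.0912 at its brightest). In the Wnt pathway, 2 of 34 genes were called at their brightest probe set. LEF1, a nuclear partner of beta-catenin, fell by 0.49 (adjusted p = 0.021) and DKK3 rose by 0.34 (adjusted p = 0.0219). Neither LEF1 nor DKK3 passed with the block as a random effect (0.0682 and 0.121). WNT5A was lower by 0.56 at a dimmer probe set (adjusted p = 0.0234, limma) and differed by -0.37 at its brightest, which did not pass (0.119). Of 29 integrin and focal adhesion genes 1 was called at its brightest probe set, the fibronectin receptor chain ITGA5, higher by 0.49 (adjusted p = 0.0357, and 0.0787 with the block as a random effect). ITGA7 was higher by 0.40 at a dimmer probe set (adjusted p = 0.0262, limma) and by 0.33 at its brightest, which did not pass (0.0542).

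Lists of DNA replication, mitosis, oxidative stress and the amino acid response had members mostly below 0 with few or no calls. Autophagy genes (15 above 0 and 12 below) and p53 targets and apoptosis genes (15 and 13) did not, and limma called 0 in each. Over all genes, 55.7% lay above 0, 1.21% were called and 13.1% had an unadjusted p under 0.05. Of 48 genes of G1/S and DNA replication, 42 lay below 0 with a median of -0.11, and 18 had an unadjusted p under 0.05, all of them lower. The kinase CDK2 was the 1 call, lower by 0.38 (adjusted p = 0.0221), and also lower by 0.39 at its other called probe set. It did not pass with the block as a random effect (adjusted p = 0.0668) or with any reagent or scrambled array left out (0.0703 to 0.153). CDC6, which loads the replicative helicase, differed by -0.29 and missed the threshold (adjusted p = 0.05). Of 51 genes of G2/M and mitosis, 44 lay below 0, the median was -0.10, and limma called 0 with 15 at an unadjusted p under 0.05 and 0 called with the block as a random effect. PLK1, the mitotic kinase, differed by -0.34 (adjusted p = 0.0617). By number the medians were -0.05, -0.14 and -0.15 for G2/M and -0.05, -0.15 and -0.15 for G1/S. In bulk RNA, fewer cells in a phase and less RNA per cell cannot be told apart.

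Among 26 genes of oxidative stress and the metallothioneins, 23 lay below 0, and the median of -0.20 was the lowest of the 35 lists. Limma called 0, beside 1.21% of all genes, and 16 had an unadjusted p under 0.05, beside 13.1%. Of these 16, 15 were lower, and 0 of the 26 were called with the block as a random effect. The metal-binding proteins MT1F, MT1E, MT1X and MT2A differed by -0.34, -0.43, -0.40 and -0.32 (adjusted p = 0.0542, 0.1, 0.119 and 0.103). Their probe sets are of the x_at kind, which can read near-identical copies, so the 4 are not separate measurements. GCLC, the enzyme that limits glutathione synthesis, differed by -0.58 (adjusted p = 0.103), and its transcription factor NFE2L2 by -0.28 (adjusted p = 0.173). The intensity trend called 5 of the 26, array weights 6 and the fit on the 6 arrays alone 3, all of them lower.

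The amino acid response that ATF4 drives followed in order. Of 25 genes 21 lay below 0 with a median of -0.15, where 55.7% of all genes lay above 0. The serine synthesis enzyme PSPH was the 1 call, beside 1.21% of all genes called. PSPH read 9.04, 9.43 and 9.62 with reagent and 8.24, 8.90 and 9.31 with scrambled siRNA, overlapping between groups. The difference was -0.55 ± 0.106 (adjusted p = 0.0476, limma), and the call was lost with robust moderation (0.0501), with a random block (0.188), with any reagent replicate left out (0.103 to 0.171) and without scrambled replicate 1 or 2 (0.223 and 0.283). ATF4 itself differed by -0.25 (adjusted p = 0.361). The median was -0.04 without reagent replicate 1 and -0.08 without scrambled replicate 2. The unfolded protein response, with 27 genes and a median of -0.05, had 0 calls in limma and 3 at an unadjusted p under 0.05, beside 13.1% of all genes.

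Genes of oxidative phosphorylation lay slightly above 0, with 46 of 58 above 0, beside 55.7% of all genes, and a median of 0.06. Limma called 0 of the 58, and 7 had an unadjusted p under 0.05, beside 13.1% of all genes. The lysosome, through which the lipid passes in both groups, had 1 call of 32, beside 1.21% of all genes called. LAMP2, a protein of its membrane, fell by 0.56 at 200821_at (adjusted p = 0.00883), while its other 2 probe sets both differed by 0.03. Cytosolic ribosomal proteins were near the median of all genes, at 0.01 over 52 genes, with 0 called and 1 at an unadjusted p under 0.05. Of the 187 called genes, 48 belonged to any of the 35 pathway lists and 139 to none.

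**Figure D4:**
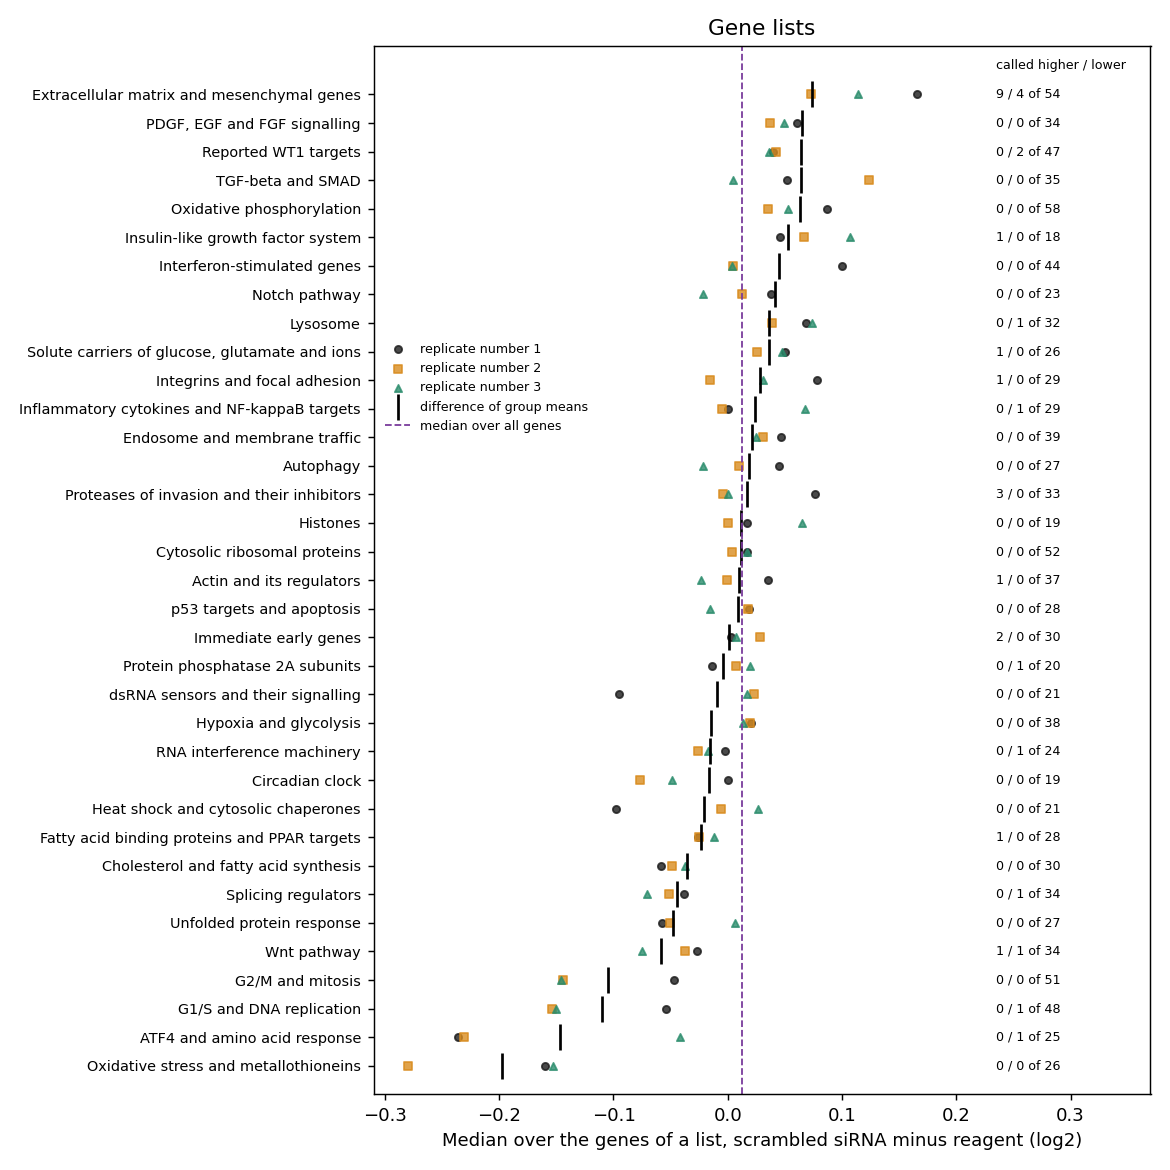
Median difference between scrambled siRNA and reagent (log2, horizontal axis) over the genes of each of 35 lists, with a point for each replicate number, a bar for the difference of group means and a dashed line for the median over all genes. Counts at the right give genes called higher and lower; the extracellular matrix list has 9 and 4 of 54, and the interferon-stimulated genes have 0 and 0 of 44.

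Of 14 measured astrocyte markers 2 were called higher and 0 lower, and of 14 mesenchymal glioma markers 1 was called higher and 1 lower. Among all genes, each at its brightest probe set, 1.21% were called in either direction. The glial glutamate transporter SLC1A3 read 8.10, 8.42 and 8.04 with reagent and 8.64, 8.92 and 8.46 with scrambled siRNA, without overlap, a difference of 0.49 ± 0.0563 (adjusted p = 0.00641, limma). CLU, a secreted chaperone of astrocytes, was higher by 0.32 (adjusted p = 0.0474). GFAP, the intermediate filament of astrocytes, read 6.79, 6.68 and 9.25 with reagent and 5.84, 5.54 and 7.99 with scrambled siRNA at its brightest probe set, with number 3 far above the others in both groups. The difference of -1.11 had an SE of 0.237 and did not pass (adjusted p = 0.0647), and its other probe set differed by -0.01. Among mesenchymal glioma markers, TNC was higher and ANXA1, a phospholipid-binding protein, lower by 0.45 (adjusted p = 0.0142). In the marker lists of neurons, oligodendrocytes, microglia, endothelium and epithelium limma called 0 genes, with 1, 0, 1, 1 and 0 at an unadjusted p under 0.05, beside 13.1% of all genes.

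WT1, the zinc finger transcription factor that the other siRNA targets, was lower with scrambled siRNA as well. Probe set 206067_s_at read 6.05, 6.58 and 5.89 with reagent, 5.59, 5.89 and 5.41 with scrambled siRNA, and 4.76, 5.09 and 4.82 with the siRNA against WT1. The 3 groups do not overlap, though reagent and scrambled arrays meet near 5.89, and the scrambled arrays lie between the others. Scrambled siRNA differed from reagent by -0.55 ± 0.0811 (adjusted p = 0.0164, limma), and WT1 siRNA differed from scrambled siRNA by a further -0.74 (adjusted p = 0.00336) and from reagent by -1.29 (adjusted p = 0.000619). The levels are among the dimmer 50% of the probe sets, and the other probe set of WT1 differed by 0.03 (adjusted p = 0.959). The call against reagent was lost without reagent replicate 1 or 2 (adjusted p = 0.0607 and 0.122), without scrambled replicate 1, 2 or 3 (0.0728, 0.13 and 0.0735), without number 1 or 2 (0.0743 and 0.305), with the block as a random effect (0.054) and without the block. Of 47 reported WT1 targets 0 were called higher and 2 lower at their brightest probe set, WT1 itself and LEF1. Among all genes 0.644% were called higher and 0.568% lower. At a dimmer probe set IGFBP5 and TGFB2 were called higher and WNT5A lower.

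The values for WT1 siRNA stand beside those for scrambled siRNA, with the caution that the comparisons share arrays. In the same fit 260 probe sets (1.36%) differed between WT1 siRNA and reagent and 675 (3.54%) between WT1 siRNA and scrambled siRNA. LAMC1 was at 10.21, 10.30 and 10.03 with WT1 siRNA, which is 0.27 above reagent (adjusted p = 0.143) and 1.56 above scrambled siRNA (adjusted p = 5.4e-05). MDFIC was 0.92 and MBNL1 0.79 above scrambled siRNA (adjusted p = 0.000932 and 0.00445), and they stood at -0.14 and -0.17 against reagent without passing (adjusted p = 0.419 and 0.424). In these 3 genes the WT1 siRNA arrays lay near the reagent arrays, and the scrambled arrays alone were low.

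NFIB was intermediate, at 7.21, 7.40 and 7.96 with WT1 siRNA. That is -0.58 against reagent (adjusted p = 0.00983) and 0.66 against scrambled siRNA (adjusted p = 0.00348). ZBTB20 with WT1 siRNA was at -0.57 against reagent (adjusted p = 0.0231) and 0.35 above scrambled siRNA, which did not pass (adjusted p = 0.0783). PRSS12 was at -0.71 against reagent (adjusted p = 0.0186) and 0.17 against scrambled siRNA (adjusted p = 0.502). For NFIB the siRNAs thus differed from each other and both from reagent.

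Among the rises, LRRC17 with WT1 siRNA was at 0.27 against reagent (adjusted p = 0.301) and -1.15 against scrambled siRNA (adjusted p = 0.0024). PRR16 was at -0.63 against reagent (adjusted p = 0.0864) and -1.70 against scrambled siRNA (adjusted p = 0.00122). COL5A1 was at 0.24 and -0.61 (adjusted p = 0.198 and 0.0062). FABP4 was at 0.69 against reagent (adjusted p = 0.0154) and -0.42 against scrambled siRNA (adjusted p = 0.0536), and SYT11 at 0.88 against reagent (adjusted p = 0.0181) and 0.16 against scrambled siRNA (adjusted p = 0.636). FABP4 and SYT11 were therefore higher than reagent with either siRNA, and LRRC17, PRR16 and COL5A1 were higher with scrambled than with WT1 siRNA.

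**Figure D5:**
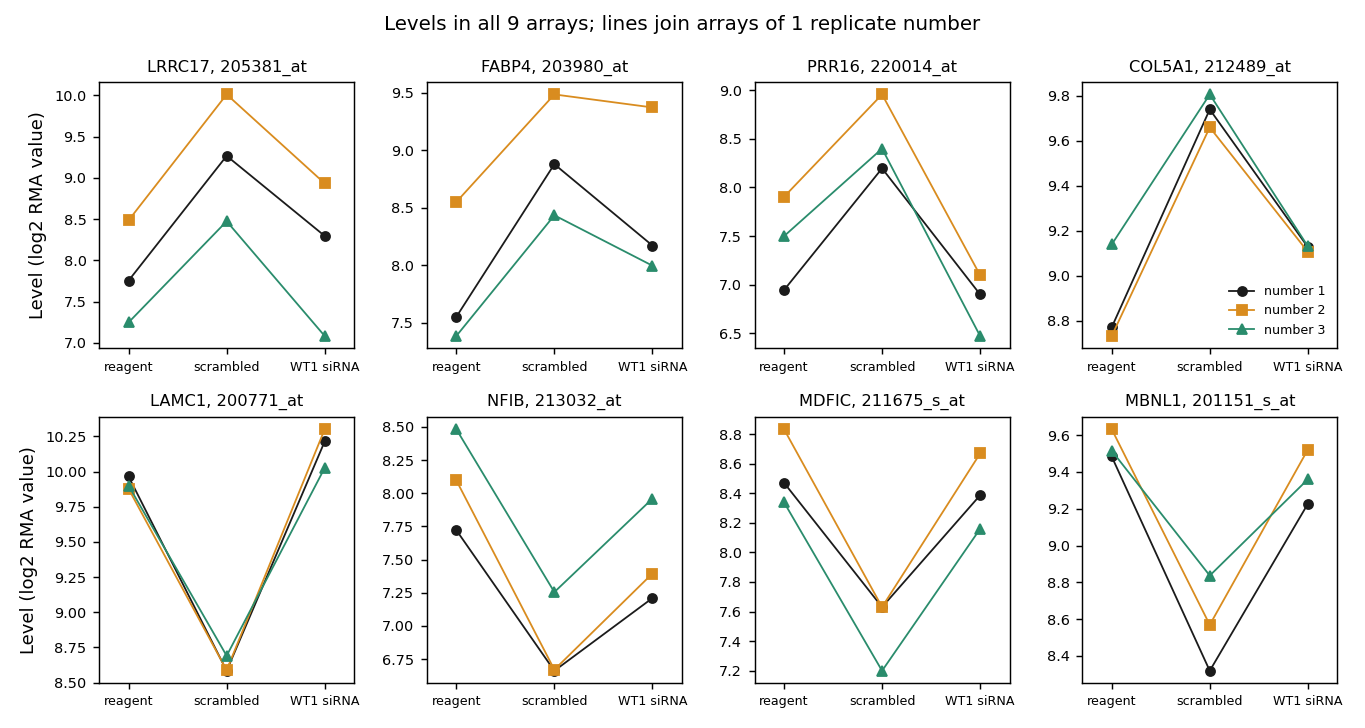
Level (log2) of 8 genes in all 9 arrays, with the groups along the horizontal axis and a line joining the arrays of each replicate number. LRRC17, FABP4, PRR16 and COL5A1 are highest and LAMC1, NFIB, MDFIC and MBNL1 lowest in the scrambled array of each number.

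The 3 pairs were not equal in size. Over all probe sets the SD of the paired differences was 0.179, 0.163 and 0.163 in numbers 1, 2 and 3. Differences past 0.5 were found at 331 probe sets in number 1 (215 higher, 116 lower), 247 in number 2 (112 and 135) and 185 in number 3 (66 and 119). Across the 19064 probe sets, which are not independent, the differences of numbers 1 and 2 had a Pearson r of 0.436, those of 1 and 3 of 0.318 and those of 2 and 3 of 0.448. Of the probe sets past 0.5 in both pairs, 112 of 114, 63 of 65 and 91 of 91 had the same sign.

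Some probe sets had a single pair apart from the others. DPYSL3, a cytoskeletal protein of growing neurites, was at 1.18, -0.73 and -0.85 at 201430_s_at, with opposite signs between number 1 and the others. At its brighter probe set 201431_s_at DPYSL3 was lower in each pair, with a mean difference of -0.49. APP at 214953_s_at was at 1.55, -0.08 and -0.22, and APH1A, a subunit of the gamma-secretase that cuts APP, was at 1.51, 0.06 and -0.13. At its brighter probe set 200602_at APP was higher in each pair, with a mean difference of 0.17. RAD50, a DNA repair protein, was at 1.05, -0.52 and -0.24 at 209349_at. Its brighter probe set 208393_s_at read 7.21, 8.58 and 8.16 with reagent and 7.46, 8.38 and 8.13 with scrambled siRNA, a smaller swing of the same signs. HNRNPA0, an RNA-binding protein, was at 0.77, 0.23 and -0.64, and EYA4 at 1.28, 0.22 and -0.30. DMRT1 was highest in number 2, at 0.75, 1.85 and 0.61, and did not pass (adjusted p = 0.0668). These probe sets were picked for the spread between pairs and are given as a description.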

How the data were processed

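Per the submitters' processing notes, the authors summarised the Affymetrix arrays with RMA, so each deposited value is a log2 level of a probe set, background-corrected and normalised between arrays. The chip definition and RMA software were not stated. The file held 22277 probe sets with 0 missing values; the 62 chip controls were left out, 22215 were tested, and the 1043 with several and 2108 with no gene symbol were not reported (11 of them were called). Columns of other samples numbered 0. Symbols came from the platform annotation.

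All 9 arrays entered a linear model in limma 3.58.1 (lmFit, contrasts.fit, eBayes; R 4.3.3), with the replicate number from the titles as a fixed block. Tests were two-sided, with Benjamini-Hochberg adjustment over the 22215 probe sets; "called" means an adjusted p under 0.05. P-values and SEs rest on the spread left after groups and replicate numbers were fitted, over all 9 arrays and moderated across probe sets. They do not measure the spread between numbers, and an SE is not that of the 3 paired differences alone. As a check of pairing, deviations from group means correlated at 0.647 to 0.849 between arrays of the same number and at -0.611 to -0.0311 otherwise. For arrays, their number limits the precision. Tables were made with pandas 2.3.3 in Python 3.11.15 and figures with matplotlib 3.10.9.

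Lists used 1 probe set per gene, the brightest over all arrays. Named were the 14 greatest rises and 14 greatest falls called with 3 pairs of the same sign, WT1, up to 10 genes called under all complete blocked alternatives, any gene called without the block, up to 4 members per list by smallest p, and up to 3 genes per number with the greatest difference from the other pairs. Other genes in the text, such as those called only at a probe set outside the lists, were chosen after their values were seen. The comparison, genes and lists were chosen with earlier results of these data known. For 1 of the 14 greatest rises the result is not reported here. The fit was tested on simulated data. Alternatives changed the block, arrays, normalisation, filter, moderation, weights or probe set, or left out an array or number.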

Additional observations from a re-analysis of the deposited data

How the results depend on the processing

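The number of probe sets called between scrambled siRNA and reagent, 231 (118 higher, 113 lower) with the replicate block, moved with most alternatives. Without the replicate block it was 1 (0 higher, 1 lower), and with the block as a random effect 85 (37 and 48). It was 734 (342 and 392) with array weights, 506 (226 and 280) on the 6 arrays alone, 443 (210 and 233) with an intensity trend and 339 (168 and 171) in the brighter 50% of probe sets. Centring arrays on their median gave 254 (117 and 137), a second quantile normalisation 246 (122 and 124), robust moderation 221 (113 and 108) and 1 probe set per gene 179 (91 and 88). With an array or number left out it ran from 3 to 370, higher from 1 to 175 and lower from 2 to 198. Without reagent replicates 1, 2 and 3 it was 85, 22 and 113, without scrambled replicates 1, 2 and 3 it was 53, 20 and 115, without numbers 1, 2 and 3 it was 76, 3 and 137, and without WT1 siRNA replicates 1, 2 and 3 it was 370, 180 and 368. Fewer arrays leave fewer residual degrees of freedom; the cause of the other shifts was not tested. Of 1781 values of named genes with all 6 arrays kept, 1536 kept sign and side of the threshold, 88 lost the call, 156 gained it and 1 changed sign; with arrays left out it was 1829, 310, 42 and 3 of 2184. The sign changes were all at WT1 216953_s_at, at 0.027: -0.017 with array weights, -0.015 without reagent replicate 3, -0.058 without number 1 and -0.092 without scrambled replicate 1, with a range of -0.092 to 0.095 over the arrays left out. Medians of gene lists moved by more than the SD of their 3 pairs in 31 of 420 and 89 of 504 values. Of the 231 calls, 205 lay in the brighter 50% of probe sets.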
